A study of Bos taurus with 6 samples.

Results

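The expression of 9 genes that make, sense or degrade cyclic AMP was followed in bovine muscle: PTGER3, which encodes the EP3 receptor for prostaglandin E2, the adenylyl cyclases ADCY4, ADCY7 and ADCY9, and the phosphodiesterases PDE3B, PDE4A, PDE4B, PDE4C and PDE4D. They are 9 of the 18010 genes with a value in the deposited transcript files, and each was matched by its gene name there. The 9 genes were chosen by their pathway and with their FPKM difference between the breeds in view, so the breed differences of these 9 genes are given as a description, without p-values.

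The animals were 3 Shandong black cattle and 3 Luxi cattle, all 18 months old and without a treatment given in the labels, and RNA-Seq was run on 1 library of longissimus dorsi muscle from each. Luxi cattle is a local yellow breed, and Shandong black cattle was bred from Japanese black, Luxi and Bohai black cattle and is described by the study as descending from cloned animals, so Luxi ancestry is present on both sides of the comparison. Same-numbered animals of the breeds are different animals, and what else differed between the herds cannot be told apart from breed. The value of a gene is its FPKM, which scales fragments by transcript length and by library size, summed over its transcripts. Each transcript is scaled by its own length, so comparison between genes is only approximate where short assembled transcripts carry a gene.

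Cyclic AMP is a second messenger made from ATP by adenylyl cyclases at the membrane. Receptors coupled to the G protein Gs stimulate the cyclases and receptors coupled to Gi, EP3 among them, inhibit them. Phosphodiesterases end the signal by hydrolysing cyclic AMP, and the messenger acts mainly through protein kinase A, which in fat cells drives lipolysis and in muscle fibres regulates calcium handling, glycogen breakdown and gene expression through the CREB family.

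The libraries rested on 14.1 to 14.6 gigabases of aligned sequence in Shandong black cattle and on 17.5 to 18 gigabases in Luxi cattle, so depth and breed cannot be told apart. The 9781 genes whose mean FPKM reached 1 in either breed were tested with limma on log2(FPKM + 1) with Benjamini-Hochberg adjustment. The word called stands for a log2 fold change (Luxi minus Shandong black cattle) of 1 or more in size together with an adjusted p-value below 0.05. On this scale the change of a gene with low FPKM is understated. Over all tested genes the log2 fold changes had a median of 0.13, which became 0.02 after scaling by median-of-ratios size factors, so small positive values lie near the middle of all genes. Luxi replicate 1 had the most transcripts listed (175373), followed by Shandong black replicate 2 (161263), against 121048 to 134905 in the other libraries. With 3 animals against 3, the smallest two-sided p that an exact permutation test can give for 1 gene is 0.1, and the p-values below measure only the spread between these 6 animals. Muscle is a mixture of cell types, in which fewer cells of a type and less RNA per cell cannot be told apart.

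All 9 genes entered the test. PTGER3 and PDE3B passed the filter only through Shandong black cattle, ADCY4 and ADCY7 only through Luxi cattle, and the other 5 through both breeds. Of the 9 genes, 2 were called, PDE4C as higher and PTGER3 as lower in Luxi cattle, where 2.57% of all genes tested were called (1.54% as higher and 1.02% as lower). The animals of the breeds did not overlap in 5 of the 9 genes. They were higher in Luxi cattle in ADCY9, PDE4B and PDE4C and lower in PTGER3 and PDE3B, and the same held in 1 direction or the other for 29.1% of all genes tested. Nothing is read from these shares or from the calls of the 9 genes, because the genes were chosen with this contrast in view.

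**Figure D1:**
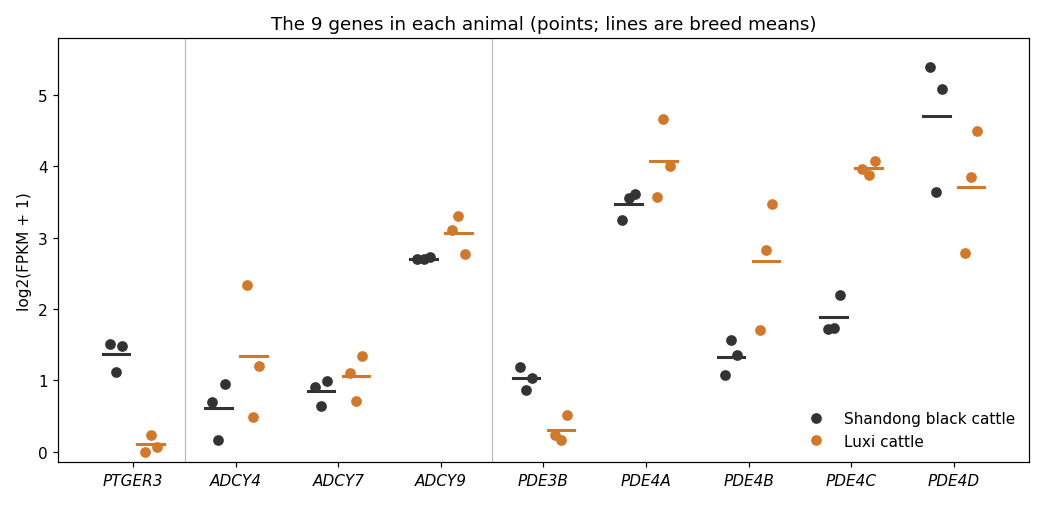
log2(FPKM + 1) of each of the 9 genes (x axis, ordered as receptor, cyclases and phosphodiesterases) in each animal, with black points for the 3 Shandong black cattle, orange points for the 3 Luxi cattle and a line at each breed's mean. The points of the breeds are apart in PTGER3, ADCY9, PDE3B, PDE4B and PDE4C and overlap in the other 4 genes, and the 3 Luxi points of PDE4C lie close together while those of ADCY4, PDE4B and PDE4D are spread.

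PTGER3 (chr3:74185627-74414286 in ARS-UCD1.2, plus strand, 7 reference transcripts) encodes the EP3 receptor, which couples mainly to Gi and through which prostaglandin E2 restrains lipolysis in fat cells. Its FPKM was 1.84, 1.17 and 1.79 in the Shandong black animals and 0, 0.180 and 0.0494 in the Luxi animals. The lowest Shandong black animal was above the highest Luxi animal, and Luxi replicate 1 had no transcript of the gene listed at all. The breed means were 1.60 ± 0.373 and 0.0764 ± 0.0929 (SD, n = 3 each), a 20.9-fold difference, and the log2 fold change was -1.27 (SE 0.19).

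The receptor rested on little sequence in Luxi cattle. Between 92.4 and 163 kilobases of aligned sequence fell on its transcripts in Shandong black cattle, against 4.35 kilobases in Luxi replicate 2 and 1.60 in Luxi replicate 3. Luxi replicate 2 owed its value to 1 assembled fragment, while Luxi replicate 3 had 4 reference transcripts listed at low levels. Counting every assembled transcript of the same strand that covered the reference exons did not bring the Luxi animals up, since the exon coverage was 1.29, 0.692 and 1.22 per gigabase aligned in Shandong black cattle and 0, 0.0256 and 0.0102 in Luxi cattle. Short assembled transcripts inside the gene but outside its exons were also less abundant in Luxi cattle, with 0.613 to 1.06 kilobases per gigabase aligned against 1.75 to 4.39. PTGER3 lost its call when Luxi replicate 2 or 3, or Shandong black replicate 1 or 3, was left out, and over the 6 fits that left out 1 animal its log2 fold change lay between -1.39 and -1.20. Over all genes tested, the fits in which it lost its call had 44, 87, 10 and 3 calls, in that order, against 251 with all animals.

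The 3 cyclases differ in how they are regulated. ADCY4 and ADCY7 belong to the group that G protein beta-gamma subunits can stimulate, and ADCY9 is a widely expressed form that is little affected by forskolin. In these muscles ADCY9 had the highest FPKM of the 3 in every animal.

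ADCY9 (chr25:3237659-3349174, minus strand) had an FPKM of 5.49, 5.48 and 5.63 in Shandong black cattle and 7.59, 8.91 and 5.83 in Luxi cattle. The Shandong black animals were close together, at 5.53 ± 0.0825 (SD, n = 3), and Luxi replicate 3 was barely above them. The log2 fold change was 0.35 (SE 0.19), and it was 0.22 after scaling by size factors.

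ADCY4 (chr10:20836833-20853209, plus strand) had an FPKM of 0.625, 0.123 and 0.935 in Shandong black cattle and 4.07, 0.402 and 1.29 in Luxi cattle. The breeds overlapped, since Luxi replicate 2 lay below Shandong black replicates 1 and 3, and Luxi replicate 1 carried most of the difference. The log2 fold change was 0.74 (SE 0.46), and it fell to 0.23 without Luxi replicate 1. Only 21.1% of the FPKM of ADCY4, summed over the 6 animals, lay on reference transcripts, and the remainder lay on assembled transcripts over its exons.

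The animal with the most ADCY4 also had the most endothelial and mural transcripts. Of the 7 endothelial markers tested (PECAM1, CDH5, TIE1, KDR, CLDN5, ESAM and EMCN), none was called, 3 did not overlap and were higher in Luxi cattle (no overlap in 29.1% of all genes tested), and the summed FPKM was 24.0 to 25.9 in Shandong black cattle and 87.2, 29.5 and 44.9 in Luxi replicates 1, 2 and 3. Among the 5 mural markers (RGS5, PDGFRB, NOTCH3, MYH11 and ACTA2), NOTCH3 was called as higher, and the summed FPKM was 56.0 to 67.1 in Shandong black cattle and 246, 38.5 and 70.9 in Luxi cattle. The order of the 3 Luxi animals was the same for ADCY4 and for both marker lists. Among the Shandong black animals it was the same for the endothelial list only. Their mural sums were 56.0, 58.1 and 67.1 in replicates 1, 2 and 3, while ADCY4 was lowest in replicate 2. Of the endothelial markers, TIE1 and CLDN5 were not highest in Luxi replicate 1, and the others were. The part of these cells in the ADCY4 result was not tested.

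ADCY7 (chr18:18656989-18720248, plus strand) had an FPKM of 0.867, 0.564 and 0.982 in Shandong black cattle and 1.16, 0.635 and 1.55 in Luxi cattle. The breeds overlapped, and the log2 fold change was 0.21 (SE 0.22). The transcripts behind these values differed between the breeds. In Luxi cattle no reference transcript of ADCY7 was listed and the whole value came from 2 to 5 assembled fragments per animal, whereas Shandong black cattle had 2 to 5 reference transcripts and at most 1 assembled one. Short fragments reach a given FPKM with little sequence, and the aligned sequence was 66.4, 9.95 and 37.1 kilobases in Luxi cattle against 61.9, 48.1 and 81.0 in Shandong black cattle. The coverage of the reference exons was 0.714, 0.538 and 0.908 per gigabase aligned in Shandong black cattle and 0.536, 0.0907 and 0.343 in Luxi cattle, so by that measure every Luxi animal was below every Shandong black one, though Luxi replicate 1 only just. The direction of ADCY7 therefore depended on the way the gene was summed.

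PDE3B (chr15:37933483-38095487, minus strand) encodes the phosphodiesterase through which insulin lowers cyclic AMP and lipolysis in fat cells. Its FPKM was 1.28, 0.824 and 1.04 in Shandong black cattle and 0.174, 0.118 and 0.425 in Luxi cattle. The breeds did not overlap, the ratio of the means was 4.39 in favour of Shandong black cattle, and the log2 fold change was -0.73 (SE 0.19). PDE3B met neither the size nor the adjusted p-value needed for a call, and none of the 18 alternative fits called it. Luxi replicate 3 had only an assembled fragment that began inside the gene, while the other 5 animals had the reference transcript. The opposite strand of this locus carried more sequence than the gene itself: 31.6 to 44.5 kilobases per gigabase aligned in Shandong black cattle and 4.09 to 10.2 in Luxi cattle. The kit named in the labels does not mark strand, but the file headers give a stranded setting and in the genes only 0.215 to 0.330% of bases were antisense, so strand was used and this signal was not added to PDE3B. The animals of the breeds did not overlap in it either, and its source was not tested.

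PTGER3 and PDE3B were lower in the same animals as the markers of fat cells. All 6 adipocyte markers tested (ADIPOQ, PLIN1, FABP4, CIDEC, LEP and PLIN4) had negative log2 fold changes, 4 of them were called as lower in Luxi cattle, and their median was -2.92. The summed FPKM of the list was 126 to 189 in Shandong black cattle and 12 to 35.5 in Luxi cattle, and LEP was listed at 0 in Luxi replicate 1, at 0.0881 in Luxi replicate 2 and at 0.0307 in Luxi replicate 3. PLIN4 overlapped between the breeds (log2 fold change -0.38). Luxi replicates 1, 2 and 3 had summed adipocyte FPKM of 12, 24.3 and 35.5. Luxi replicate 1, in which PTGER3 was not listed, was thus lowest. The order of the Luxi animals was not the same for either gene, since PTGER3 was highest and PDE3B lowest in Luxi replicate 2. PLIN1 and FABP4 stand on the lipolysis list given further on as well. The part of fat cells in the results for PTGER3 and PDE3B was not tested. Leukocyte markers, another possible source of PTGER3, had a summed FPKM of 34.9 to 45.6 in Shandong black cattle and 16.7 to 38.0 in Luxi cattle, and none of the 7 tested was called. Of these 7, 6 had negative log2 fold changes, with a median of -0.47. In 2 of them the breeds did not overlap, with Luxi cattle lower (no overlap in 29.1% of all genes tested). The part of leukocytes in the PTGER3 result was not tested.

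**Figure D2:**
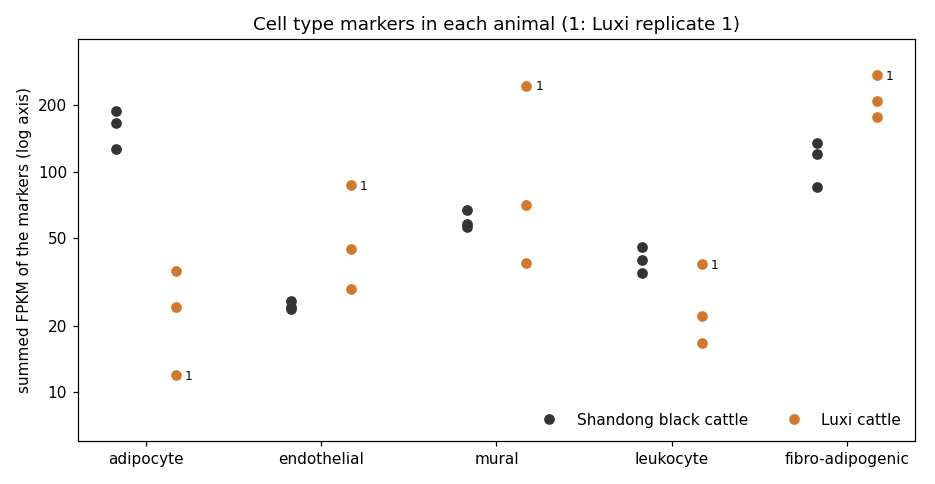
Summed FPKM of 5 lists of cell type markers (log axis) in each animal, with black points for Shandong black cattle, orange points for Luxi cattle and the digit 1 beside Luxi replicate 1. The adipocyte sums are 126 to 189 in Shandong black cattle and 12 to 35.5 in Luxi cattle, and Luxi replicate 1 is highest for endothelial, mural and fibro-adipogenic markers and lowest for adipocyte markers.

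The PDE4 enzymes hydrolyse cyclic AMP and not cyclic GMP, and each of the 4 genes starts from several first exons. The resulting long and short forms differ in their amino-terminal parts, which place the enzyme in the cell and set its regulation by protein kinase A.

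PDE4C (chr7:5001543-5013726, plus strand) had the log2 fold change of the largest size among the 9 genes on this scale. Its FPKM was 2.28, 2.32 and 3.58 in Shandong black cattle and 14.6, 13.7 and 15.9 in Luxi cattle. The lowest Luxi animal had more than the highest Shandong black animal by a wide margin, and Luxi replicate 1, which stood apart in many other genes, was close to the other Luxi animals. The means were 2.73 ± 0.740 and 14.7 ± 1.06 (SD, n = 3 each), a 5.40-fold difference, and the log2 fold change was 2.09 (SE 0.20). Transcripts that used the most upstream annotated first exon carried 1.84, 2.32 and 3.03 FPKM in Shandong black cattle and 11.1, 13.6 and 15.4 in Luxi cattle. Coverage of that exon itself was 0.771, 1.12 and 1.24 per gigabase aligned in Shandong black cattle and 1.07, 4.67 and 3.20 in Luxi cattle, which overlap at Luxi replicate 1. Over all reference exons of the gene the coverage was 2.14 to 2.62 per gigabase aligned in Shandong black cattle and 11.6 to 12.3 in Luxi cattle. PDE4C lost its call without Shandong black replicate 1 and without Shandong black replicate 3, with log2 fold changes of 2.01 and 2.25. Over all genes tested, these fits had 10 and 3 calls, against 251 with all animals.

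PDE4B (chr3:78957188-79027273, minus strand) is the form that inflammatory and cyclic AMP signals induce in immune cells. Its FPKM was 1.10, 1.97 and 1.55 in Shandong black cattle and 2.26, 6.11 and 10.1 in Luxi cattle. There was no overlap, but Luxi replicate 1 was close to the highest Shandong black animal and the Luxi animals were far apart from each other. The log2 fold change was 1.34 (SE 0.42). Without Luxi replicate 1 it was 1.82 (SE 0.25) and the gene was called. Transcripts from an annotated first exon within the gene (chr3:78997419-78998290) were listed in Luxi replicates 2 and 3 only, at 0.358 and 0.940 FPKM, and its coverage was 0 in the other 4 animals.

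PDE4A (chr7:14949986-14990839, plus strand) had an FPKM of 8.47, 10.8 and 11.3 in Shandong black cattle and 10.9, 24.3 and 15 in Luxi cattle. The breeds overlapped at Luxi replicate 1, and the log2 fold change was 0.60 (SE 0.30). The gene used mainly a pair of neighbouring first exons. Transcripts from the upstream one (chr7:14962150-14962286) had 7.35, 6.41 and 5.69 FPKM in Shandong black cattle and 3.59, 9.70 and 7.25 in Luxi cattle, with no separation of the breeds. Transcripts from the downstream one (chr7:14963469-14963660) had 1.01, 2.59 and 4.89 FPKM in Shandong black cattle and 5.71, 14.3 and 6.61 in Luxi cattle, where every Luxi animal was above every Shandong black animal. The downstream exon carried 12, 24.1 and 43.4% of the gene in Shandong black cattle and 52.4, 58.7 and 44.2% in Luxi cattle. Coverage of the downstream exon itself was 0.240, 1.68 and 2.83 per gigabase aligned in Shandong black cattle and 1.5, 6.42 and 3.95 in Luxi cattle, which overlap.

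PDE4D (chr20:19698921-20317769, plus strand) had the highest FPKM of the 9 genes in every Shandong black animal, at 40.8, 11.5 and 33.1, against 5.89, 13.4 and 21.6 in Luxi cattle. The breeds overlapped, since Shandong black replicate 2 lay below Luxi replicates 2 and 3, and the log2 fold change was -0.99 (SE 0.57). Leaving out 1 animal moved it between -1.53 and -0.53. Summed over reference transcripts only, the direction turned, with a log2 fold change of 0.46 (SE 0.72). Assembled transcripts supplied 77.1, 78 and 37.0% of the FPKM of PDE4D in Shandong black cattle and 6.72, 2.44 and 0% in Luxi cattle. The coverage of the reference exons, which does not depend on how reads were shared among transcripts, was 41.2, 10.4 and 25.7 per gigabase aligned in Shandong black cattle and 6.69, 10.4 and 17.7 in Luxi cattle, close to the FPKM.

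The 618849 bases of PDE4D were transcribed from 6 first exons that were listed in at least 3 animals, labelled A to F here in the order of transcription. All but exon B are annotated. Exon B (chr20:19770250-19770399) led spliced transcripts of up to 15 exons that carried 22.8, 7.15 and 12.2 FPKM in the Shandong black animals and were listed in no Luxi animal, and they made up 55.9, 62.4 and 37.0% of the gene in Shandong black cattle. Exon C (chr20:19933807-19934047) led 0.795, 0.286 and 0.520 FPKM in Shandong black cattle and 2.83, 11.1 and 6.16 in Luxi cattle, or 1.57 to 2.50% of the gene against 28.6 to 82.7%. Exon A (chr20:19698921-19699277) led 1.09, 0.563 and 1.5 FPKM in Shandong black cattle and 0.0967, 0.0566 and 0.249 in Luxi cattle. In the listed transcripts the breeds were thus apart at exons A, B and C, with Shandong black cattle higher at A and B and lower at C.

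The coverage of these exons did not follow the transcripts. At exon A it separated the breeds in the opposite direction, at 0.0746, 0.128 and 0.166 per gigabase aligned in Shandong black cattle and 3.70, 0.217 and 0.466 in Luxi cattle. Coverage of exon B by all transcripts of its strand was 1.41, 6.14 and 3.25 per gigabase aligned in Shandong black cattle and 1.56, 0 and 0.110 in Luxi cattle, so Luxi replicate 1 was above Shandong black replicate 1. Coverage of exon C was 0.453, 1.37 and 0.105 in Shandong black cattle and 3.19, 4.41 and 0.549 in Luxi cattle, which overlap too. At exon B the transcripts of Shandong black replicate 1 had 22.8 FPKM while the exon had a coverage of 1.41 on the same scale. Such gaps were not particular to that exon or animal. Exon D had 10.8 FPKM and a coverage of 0.894 in Luxi replicate 3. At exon A in Luxi replicate 1 the gap ran the other way, with 0.0967 FPKM and a coverage of 3.70. The source of these gaps was not tested. Exons D and E did not separate the breeds, with 0.477 to 12.1 and 1.46 to 6.93 FPKM in Shandong black cattle and 0.0604 to 10.8 and 0.0969 to 3.98 in Luxi cattle.

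**Figure D3:**
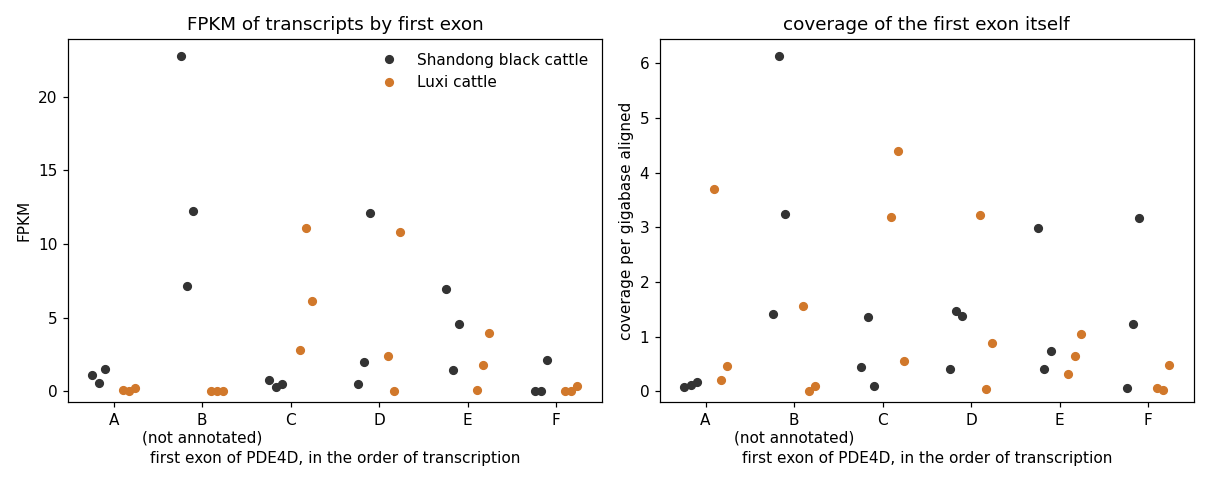
Left, the FPKM of PDE4D transcripts by the first exon they start from (A to F, in the order of transcription) in each animal, and right, the coverage of each first exon itself per gigabase aligned, with black points for Shandong black cattle and orange points for Luxi cattle. On the left exon B has 7.15 to 22.8 FPKM in Shandong black cattle and none in Luxi cattle, whereas on the right the points of the breeds overlap at exons B and C and those of exon A lie the other way round from the left.

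Much same-strand sequence within PDE4D lay on assembled transcripts with under 50% of their bases on its exons and entered no gene, although part of it lay on those exons in Luxi replicate 1, where 13 of the 25 such transcripts had several exons. It came to 255 kilobases per gigabase aligned in Luxi replicate 1 and 76.1 in Shandong black replicate 2, against 5.17 and 16.1 in Luxi replicates 2 and 3 and 0 in Shandong black replicates 1 and 3. In Luxi replicate 1 this was 4585 kilobases, more than the 711 kilobases counted for the gene in that animal. The 2 animals with the most uncounted sequence were those with the lowest PDE4D in their breed, and the part of this sequence in the result was not tested. Muscle fibre markers had their lowest summed FPKM of the 6 animals (15180) in Luxi replicate 1, where PDE4D was also lowest. Among Shandong black cattle their sum was highest (50290) in Shandong black replicate 2, where PDE4D was lowest for that breed. ACTA1 was the largest part of the sum, at 12237 FPKM in Luxi replicate 1, and TTN, MYH1 and MYH2 were not lowest in that animal. The part of muscle fibres in the PDE4D result was not tested.

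Within the PDE4 family the balance of the genes differed. PDE4D made up 77.5, 43.2 and 66.8% of the summed PDE4 FPKM in Shandong black cattle and 17.5, 23.3 and 34.5% in Luxi cattle, without overlap. PDE4C made up 4.34, 8.75 and 7.25% in Shandong black cattle and 43.4, 23.9 and 25.4% in Luxi cattle, also without overlap. With reference transcripts only, the PDE4D shares overlapped, at 44.7, 14.9 and 57.8% in Shandong black cattle and 19.5, 23.6 and 35.3% in Luxi cattle, while those of PDE4C did not, at 8.41 to 9.60% and 24.8 to 40.3%. With coverage of the reference exons the shares of neither gene overlapped. PDE4D had 46.3 to 81.2% in Shandong black cattle and 23.1 to 36.1% in Luxi cattle, and PDE4C had 4.22 to 10.04% and 25.2 to 40.95%. Both alternatives were added after seeing the data. PDE4A had 16.1 to 40.6% and 24.0 to 42.2%, so its share of the family did not separate the breeds. The summed FPKM of the 4 genes overlapped, at 52.7, 26.6 and 49.5 in Shandong black cattle and 33.7, 57.6 and 62.5 in Luxi cattle. PDE4D ranked first in every Shandong black animal and in Luxi replicate 3, PDE4C in Luxi replicate 1 and PDE4A in Luxi replicate 2. The shares use the same values as the genes above and add no separate evidence.

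**Figure D4:**
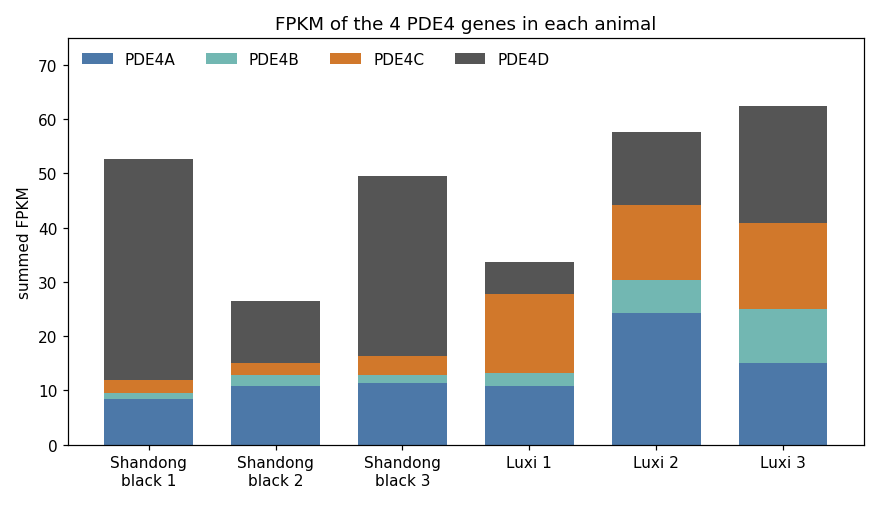
Summed FPKM of PDE4A, PDE4B, PDE4C and PDE4D (stacked, y axis from 0) in each of the 6 animals. PDE4D is the largest part in the 3 Shandong black animals, with 43.2 to 77.5% of the bar, and 17.5 to 34.5% in the Luxi animals, where PDE4C takes 23.9 to 43.4%.

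Beside these 9 genes, 154 further genes of the cyclic AMP pathway had been listed by role, of which 137 were found and 99 tested. Of the 99, 8 were called (8.08%, against 2.57% of all genes tested), 4 as higher and 4 as lower in Luxi cattle. The lists were written with earlier results of these data known, so this share says nothing particular about the pathway. When 1 animal was left out, PLIN1 was called in all 6 fits, FABP4 and PER1 in 3, BVES, CREM and LIPE in 2, HRH2 in 1 and CITED2 in none. Over all genes tested, these fits had 3 to 593 calls. HRH2 and CREM passed the filter only through Luxi cattle and PLIN1 only through Shandong black cattle, in each case the breed in which the gene was higher. The same held for genes named below that were not called. PTGDR, APLNR, CREB3L1 and GRK5 passed only through Luxi cattle and PTGS1 only through Shandong black cattle. The median log2 fold change of the 99 genes was 0.22, against 0.13 for all genes tested. Adjusted p-values below come from limma with Benjamini-Hochberg adjustment over the 9781 genes.

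Upstream of the cyclases, 7 of the listed Gs-coupled receptors were tested and 1 was called. HRH2, the histamine H2 receptor, was 0.184 to 0.401 FPKM in Shandong black cattle and 1.69 to 4.62 in Luxi cattle, with a log2 fold change of 1.52 (SE 0.29, adjusted p = 0.0429). PTGDR, a receptor for prostaglandin D2, was 0.605 to 0.653 and 1.05 to 2.0 FPKM (log2 fold change 0.60, adjusted p = 0.133). Of the Gi-coupled receptors, which work in the direction of EP3, 5 were tested and none was called, with 3 at an unadjusted p under 0.05. APLNR and S1PR1, both receptors of endothelial cells, had log2 fold changes of 1.04 and 0.95 (adjusted p = 0.137 and 0.134) and were highest in Luxi replicate 1, at 3.45 and 25.6 FPKM. The part of endothelial cells in these values was not tested. ADORA1, the adenosine A1 receptor, was below the filter at 0.662 to 1.06 FPKM in Shandong black cattle and 0, 0 and 0.177 in Luxi cattle, and NPY1R was below it at 0 to 0.0630 and 0.453 to 0.575. None of the 8 G protein subunits tested was called, with none at an unadjusted p under 0.05. GNAI2 was 6.83 to 8.15 and 8.67 to 15.1 FPKM, and GNB1 was 14.0 to 16.5 and 16.9 to 17.2.

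The cyclase with the highest FPKM was not among the 9 genes. ADCY2 had 42.4 to 45.8 FPKM in Shandong black cattle and 24.8 to 35.0 in Luxi cattle, and its log2 fold change was -0.60 (SE 0.22, adjusted p = 0.180). It made up 79.4 to 82.7% of the summed cyclase FPKM in Shandong black cattle and 60.2 to 70.8% in Luxi cattle, while ADCY9 made up 9.91 to 10.5% and 14.5 to 18.4%. ADCY1 stayed under the filter at 0 to 0.319 and 0.296 to 0.742 FPKM. None of the 4 other cyclases and none of the 8 other phosphodiesterases tested was called, with 1 and 2 of them at an unadjusted p under 0.05. The medians of both lists, 0.10 and 0.12, turned just below 0 under quantile normalization. PDE7A and PDE7B, both specific for cyclic AMP like the PDE4 genes, were 2.69 to 4.18 and 5.60 to 7.62 FPKM in Shandong black cattle and 1.14 to 2.11 and 2.67 to 4.65 in Luxi cattle, with log2 fold changes of -0.82 and -0.68 (adjusted p = 0.0893 and 0.132).

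Downstream, none of the 7 protein kinase A subunits and inhibitors tested was called, with 1 at an unadjusted p under 0.05. PRKACB, a catalytic subunit, was 4.16 to 5.16 FPKM in Shandong black cattle and 2.58 to 3.42 in Luxi cattle (log2 fold change -0.52, adjusted p = 0.136), and PKIA, the inhibitor of muscle, was 72 to 77.3 and 51.8 to 71.4 (-0.31, adjusted p = 0.471). None of the 11 A-kinase anchoring proteins tested was called, none had an unadjusted p under 0.05, and in none were the animals of the breeds apart. Among the other proteins that bind cyclic AMP, 1 of 6 was called. BVES, a membrane protein of striated muscle that binds cyclic AMP, was 5.58 to 8.33 FPKM in Shandong black cattle and 14.5 to 20.3 in Luxi cattle, with a log2 fold change of 1.24 (SE 0.22, adjusted p = 0.0375). Its relative POPDC2 had a log2 fold change of 1.41 and was not called (adjusted p = 0.0771).

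Of the 13 CREB family members and coactivators, 12 had positive log2 fold changes, 6 did not overlap, all with Luxi cattle higher (29.1% of all genes tested did not overlap, in either direction), and 1 was called. Their median was 0.52, and it was 0.40 with size factors, against 0.02 for all genes tested on that scale. CREM, which encodes activators and repressors of cyclic AMP-driven transcription, was 0.627 to 1.10 FPKM in Shandong black cattle and 30.7, 4.25 and 20.6 in Luxi cattle, with a log2 fold change of 3.07 (SE 0.60, adjusted p = 0.0471). The CREM call held in only 4 of 18 alternative fits, and with coverage of the reference exons the log2 fold change was 1.55. CREB3L1 was 0.187 to 2.54 and 1.26 to 2.33 FPKM (log2 fold change 0.72, adjusted p = 0.365). EP300, a histone acetyltransferase that CREB recruits, was 5.79 to 6.67 and 9.49 to 13.6 FPKM (log2 fold change 0.82, adjusted p = 0.0728). Of the 12 CREB target genes tested, PER1, a clock gene, was called as higher (4.05 to 5.61 and 18.7 to 41.0 FPKM, log2 fold change 2.14, SE 0.32, adjusted p = 0.0258) and CITED2 as lower (18.1 to 46.8 and 5.39 to 9.82 FPKM, -1.90, SE 0.37, adjusted p = 0.0458). The immediate early genes FOS, at 70.1 to 82.9 and 19.7 to 64.1 FPKM, and NR4A1, at 9.81 to 16.9 and 12.5 to 67.5, were not called, and both are named here after their values were seen. PCK1, a gluconeogenic enzyme, was below the filter at 0.361 to 1.00 FPKM in Shandong black cattle and 0 to 0.226 in Luxi cattle. PPARGC1A, a regulator of mitochondrial genes, was 1.70 to 2.07 FPKM in Shandong black cattle and 44.5, 5.18 and 7.14 in Luxi cattle and was not called (adjusted p = 0.129).

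Of the 11 tested genes of lipolysis and prostaglandin synthesis, the pathway on which EP3 and PDE3B act in fat cells, 3 were called, all as lower in Luxi cattle, and the median log2 fold change was -0.99. They were LIPE, the hormone-sensitive lipase that protein kinase A activates (-1.46, SE 0.25, adjusted p = 0.0329), PLIN1, the perilipin of the fat droplet (-3.06, SE 0.23, adjusted p = 0.00701), and FABP4, the fatty acid carrier of fat cells (-3.90, SE 0.49, adjusted p = 0.0195). PLIN1 and FABP4 also stand on the adipocyte list, whose summed values are given above, and the part of fat cells in these 3 results was not tested. PTGS1, a cyclooxygenase that provides the precursor of prostaglandin E2, was 1.48 to 2.34 FPKM in Shandong black cattle and 0.185 to 0.630 in Luxi cattle, with a log2 fold change of -0.99 (adjusted p = 0.0521). AQP7, a glycerol channel, was 68.7 to 129 and 37.2 to 70.4 FPKM (log2 fold change -0.99, adjusted p = 0.165). PNPLA2, which the paper names as ATGL, overlapped between the breeds, at 30.1 to 36.9 and 17.3 to 37.1 FPKM (log2 fold change -0.49, adjusted p = 0.388). ADRA1A was below the filter at 0.437 to 0.880 and 0.0249 to 0.221 FPKM. Among the 7 tested genes of receptor desensitization and cyclic AMP export none was called, with 2 at an unadjusted p under 0.05. GRK5, a receptor kinase, was 0.661 to 0.760 and 1.45 to 3.96 FPKM, and ARRB1, a beta-arrestin, was 1.61 to 2.1 and 2.15 to 2.83.

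**Figure D5:**
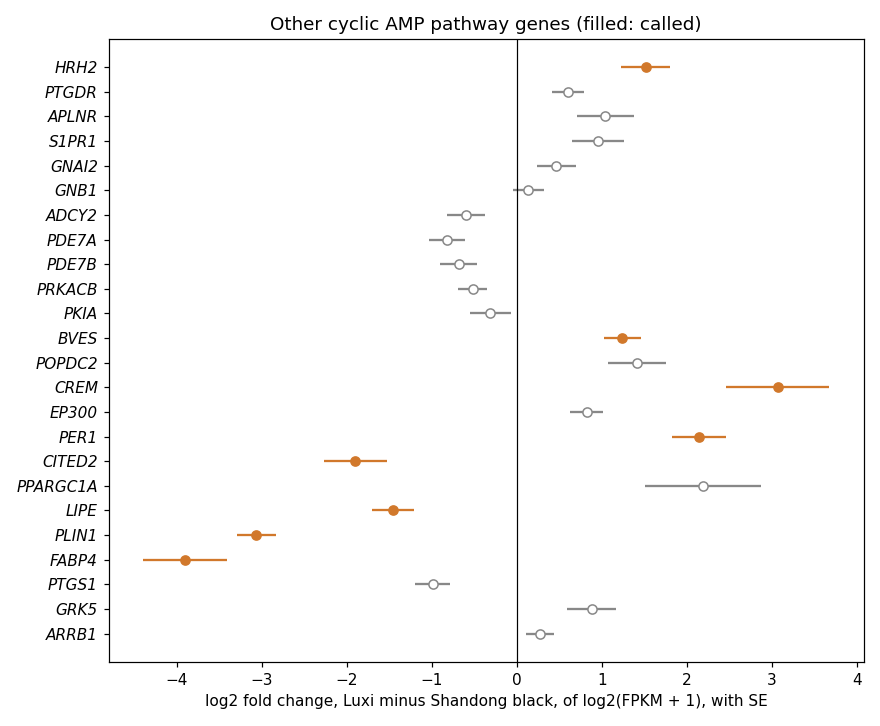
log2 fold change (Luxi minus Shandong black cattle, on log2(FPKM + 1)) with its SE for 24 of the 99 tested pathway genes that are not among the 9, from receptors at the top to desensitization at the bottom, with filled orange points for the 8 called genes. The 24 were picked for a call, because the paper names them, or for the largest changes without overlap within their list, however small. CREB3L1, AQP7, PNPLA2, FOS and NR4A1 are not shown. The called genes lie between -3.90 (FABP4) and 3.07 (CREM), with HRH2, BVES, CREM and PER1 on the right and CITED2, LIPE, PLIN1 and FABP4 on the left.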

How the data were processed

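The authors trimmed reads with Fastp, aligned them to ARS-UCD1.2 with HISAT and ran StringTie on each library. The paper and the file headers name different StringTie versions, and the headers give 1.3.3b with stranded reads. The deposited files hold, for each transcript, the coverage (reads per base), the FPKM and the TPM, with no whole-number counts. A transcript without a line in a library was taken as 0. Aligned bases were computed as coverage over FPKM.

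Gene FPKM was the sum of reference transcripts and of same-strand assembled transcripts that placed 50% or more of their bases on the exons of that gene. Other assembled transcripts, with 21.6 to 29.8% of the FPKM of a library, entered no gene. Cuffdiff, the test in the study, needs alignments and was not run. Genes were compared with lmFit and eBayes (with a trend) in limma 3.58.1 (R 4.3.3), without covariates. The procedure was tested on simulated data. Python 3.11.15 with pandas 2.3.3 was used otherwise.

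The 9 genes and all lists were chosen with earlier results of these data known. Named beside the 9 were the called genes of each pathway list and, where fewer than 2 were called, up to 2 non-overlapping tested genes with the largest log2 fold change. The genes of the lists that the paper names were given too, of which PCK1, CREB3L1, AQP7 and PNPLA2 were added after their values were seen. Alternatives were other pseudocounts, filters, units, scalings and thresholds, voom, a replicate block, other sums over transcripts and leaving out each animal. The kit in the labels does not mark strand, whereas the file headers and the files do. Coverage of the reference exons was chosen after seeing the data. It counts every same-strand transcript and is divided by the aligned bases, as FPKM is.

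Of the 154 listed pathway genes, those without a line under the listed name, GLP1R and PDE11A among them, were not analysed here. No sequences are shown, since none was used.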

Additional observations from a re-analysis of the deposited data

How the results depend on the processing

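Among the 9 genes, ADCY7 reversed in 3 of 18 alternative fits, to -0.78 with reference transcripts only, -0.39 with coverage of the reference exons and -1.54 with voom, and PDE4D reversed to 0.46 with reference transcripts only. The other 7 kept their sign in all 18. The number of the 9 genes called, 2, was 1 when the mean of all 6 animals had to reach an FPKM of 1 (where PTGER3 was not tested), 1 with a log2 fold change of at least 2 and 1 with the replicate block, and it was 0 to 3 when one animal was left out: 0 without Shandong black replicate 1 or 3, 1 without Luxi replicate 2 or 3 and 3 without Luxi replicate 1. The 8 other pathway genes called became 5 with voom, 1 when low genes were not filtered out, 4 with a log2 fold change of at least 2 and 3 with the replicate block. Leaving out one animal gave 1 to 13: 13 without Luxi replicate 1, 4 without Luxi replicate 2, 3 without Luxi replicate 3 or Shandong black replicate 2 and 1 without Shandong black replicate 1 or 3. PLIN1 was called in all 18 fits, FABP4 and PER1 in 14, BVES and LIPE in 12, HRH2 in 10, CITED2 in 7 and CREM in 4. Same-numbered animals correlated by 0.075 to 0.087 in their deviations, so the numbers were not taken as pairs, and the replicate block reduced the calls among all genes from 251 to 135. Over all genes the called split was 151 higher and 100 lower, but 115 and 150 with size factors and 124 and 164 with quantile normalization. Leaving out one animal gave 3 to 593 calls over all genes. They were 593, 44 and 87 without Luxi replicates 1, 2 and 3, and 10, 182 and 3 without Shandong black replicates 1, 2 and 3. With voom 113 of all genes were called, without the filter 63, with the mean of all 6 animals 226 and with a log2 fold change of at least 2 only 67. The cause of these changes was not tested.

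PTGER3, PDE3B, ADCY4 and ADCY7 lie near an FPKM of 1, where the pseudocount understates change and a few assembled fragments decide a value. Without whole-number counts no counting error is given. First exons rest on the assembler's sharing of reads among overlapping transcripts.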
